A study of Mus musculus with 12 samples.

Results

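The RNA of 10 genes of the interleukin-1 (IL-1) family was followed in stem and progenitor cells of a mouse model of chronic myeloid leukemia (CML), out of 46103 genes listed for each library. The genes were taken by name: the signaling receptors Il1r1, Il1rl1 and Il18r1, their accessory chains Il1rap and Il18rap, the decoy receptor Il1r2, the inhibitory receptor Sigirr, the ligands Il1b and Il18, and the receptor antagonist Il1rn. None of the 10 was listed in numbered copies. Each library held 100 sorted cells that were BCR-ABL1+, CD27+ and of the c-Kit+ Sca-1+ lineage-negative (KSL) phenotype, from bone marrow and spleen. DP cells were G0M+, meaning that they also carried a fluorescent reporter of the resting (G0) phase, and SP cells were G0M-. DP and SP cells came from vehicle-treated mice, and IMDP and IMSP cells are the same populations after imatinib, which blocks the kinase activity of BCR-ABL1 and was given by daily gavage at 40 mg/kg from day 10 after transplantation. Every group was represented by 3 libraries, 12 in all. The leukemia of all groups was made in C57BL/6 mice by retroviral transfer of BCR-ABL1 into 5-fluorouracil-treated marrow whose reporter, a mutant p27 fused to mVenus at the Rosa26 locus, had been switched on by Vav1-Cre in blood cells. These cells were given to lethally irradiated recipients together with normal marrow, and mice were 6 to 12 weeks old. Which mouse or pool of mice gave a library is not stated in the sources used here, so p values measure the spread between libraries.

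IL-1 family ligands act through paired receptor chains. A ligand first binds its own receptor, IL1R1 for IL-1, IL18R1 for IL-18 and ST2 (the product of Il1rl1) for IL-33, and the complex then recruits an accessory chain, IL1RAP for IL-1 and IL-33 or IL18RAP for IL-18, after which MYD88 and the IRAK kinases carry the signal to NF-κB. IL1R2 binds IL-1 without signaling, IL1RN occupies IL1R1, SIGIRR dampens receptor complexes, and IL-1β and IL-18 are made as precursors that caspase-1 cleaves. In blood, IL-1 is known to drive stem cells toward the myeloid lineage, ST2 is prominent on mast cells, basophils and some lymphoid cells, and IL1RAP is known as a surface marker of CML stem cells.

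Of the 10 genes, 5 lie in a single receptor cluster on chromosome 1 (GRCm38, plus strand), in the order Il1r2 (40074079 to 40125231), Il1r1 (40225080 to 40317257), Il1rl1 (40429570 to 40465415), Il18r1 (40465552 to 40500854) and Il18rap (40515362 to 40551705), with the IL-36 receptor gene Il1rl2 between Il1r1 and Il1rl1. The cluster spans 477.6 kb, and only 137 bases separate the end of Il1rl1 from the start of Il18r1. Il1rap lies on chromosome 16 (26581704 to 26730117), Sigirr on chromosome 7 (141091175 to 141100572), Il18 on chromosome 9 (50554827 to 50581840), and Il1rn (24336853 to 24351494) and Il1b (129364570 to 129371139) on chromosome 2. Windows of 250 bases before 15 annotated starts were available for 9 of the 10 genes in RefSeq. Both starts of Il1r1 and the first start of Il1rl1 are shown, since Il1r1 passed the test with treatment and Il1rl1 had the widest range of the receptors, and since no annotated exon reaches into these windows. Capitals mark matches, on either strand, to the GATA motif AGATAA, the STAT motif TTCNNNGAA or the κB consensus, and no match overlapped another.
Il1r1 first start, chr1:40224830-40225079, plus strand: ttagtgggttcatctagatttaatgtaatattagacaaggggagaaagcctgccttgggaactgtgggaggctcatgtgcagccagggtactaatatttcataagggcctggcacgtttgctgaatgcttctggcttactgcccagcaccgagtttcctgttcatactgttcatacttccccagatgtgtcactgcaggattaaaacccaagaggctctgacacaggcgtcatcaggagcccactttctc
Il1r1 second start, chr1:40266336-40266585, plus strand: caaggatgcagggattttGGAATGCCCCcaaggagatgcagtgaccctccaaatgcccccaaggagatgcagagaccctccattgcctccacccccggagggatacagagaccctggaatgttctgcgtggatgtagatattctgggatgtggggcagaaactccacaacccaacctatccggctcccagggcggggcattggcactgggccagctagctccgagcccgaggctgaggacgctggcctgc
Il1rl1 first start, chr1:40429320-40429569, plus strand: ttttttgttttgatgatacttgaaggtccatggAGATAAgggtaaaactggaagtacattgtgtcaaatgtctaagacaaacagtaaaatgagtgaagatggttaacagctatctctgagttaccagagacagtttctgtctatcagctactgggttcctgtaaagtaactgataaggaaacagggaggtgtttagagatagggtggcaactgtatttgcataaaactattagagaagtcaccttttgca
The window of the first Il1r1 start held none of the 3 motifs, and that of the second start held a κB match from 232 to 223 bases before the start. The Il1rl1 window held a GATA match from 217 to 212 bases before the start, and its second start, whose window overlaps an exon of the gene and is not printed, another GATA match. Of the other windows, that of Il1r2 and the third start of Il18r1 held STAT matches, and the windows not yet named held none of the 3, so that 5 of the 15 windows held a match. Among all 32851 windows of this length, 9.99% held the GATA motif, 7.02% the STAT motif and 7.25% the κB consensus. A match is a description of the letters and shows no binding.

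Levels are given as RPKM, reads scaled to transcript length and to the reads of the library, which can be compared between genes. The totals behind the values were 11368000 to 20574000 reads per library, at which 1 read on 1 kb equals 0.0486 to 0.088 RPKM, and the reads behind each value were recovered from the steps of the RPKM values. Differences were tested with limma on log2(RPKM + 0.1) over the 10072 genes that reached 1 RPKM in 3 or more libraries, with p values adjusted over all of them and a threshold of 0.05. The population effect compares the 6 G0M+ libraries (DP and IMDP) with the 6 G0M- libraries (SP and IMSP), and the treatment effect the 6 imatinib with the 6 vehicle libraries. The labels held against their markers: Kit, Ly6a (Sca-1) and Cd27 were above 0 in every library, Ly6a was higher in G0M+ libraries (log2 fold change 1.42, limma, adjusted p = 0.00544), and Mki67 was lower (-2.42, limma, adjusted p = 6.12e-06). Of the 10 family genes, 8 passed the filter. Il1r2 and Il1rn did not and were tested in a fit without the filter over 16776 genes. In these bulk samples fewer cells with a transcript and less transcript per cell cannot be told apart.

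**Figure D1:**
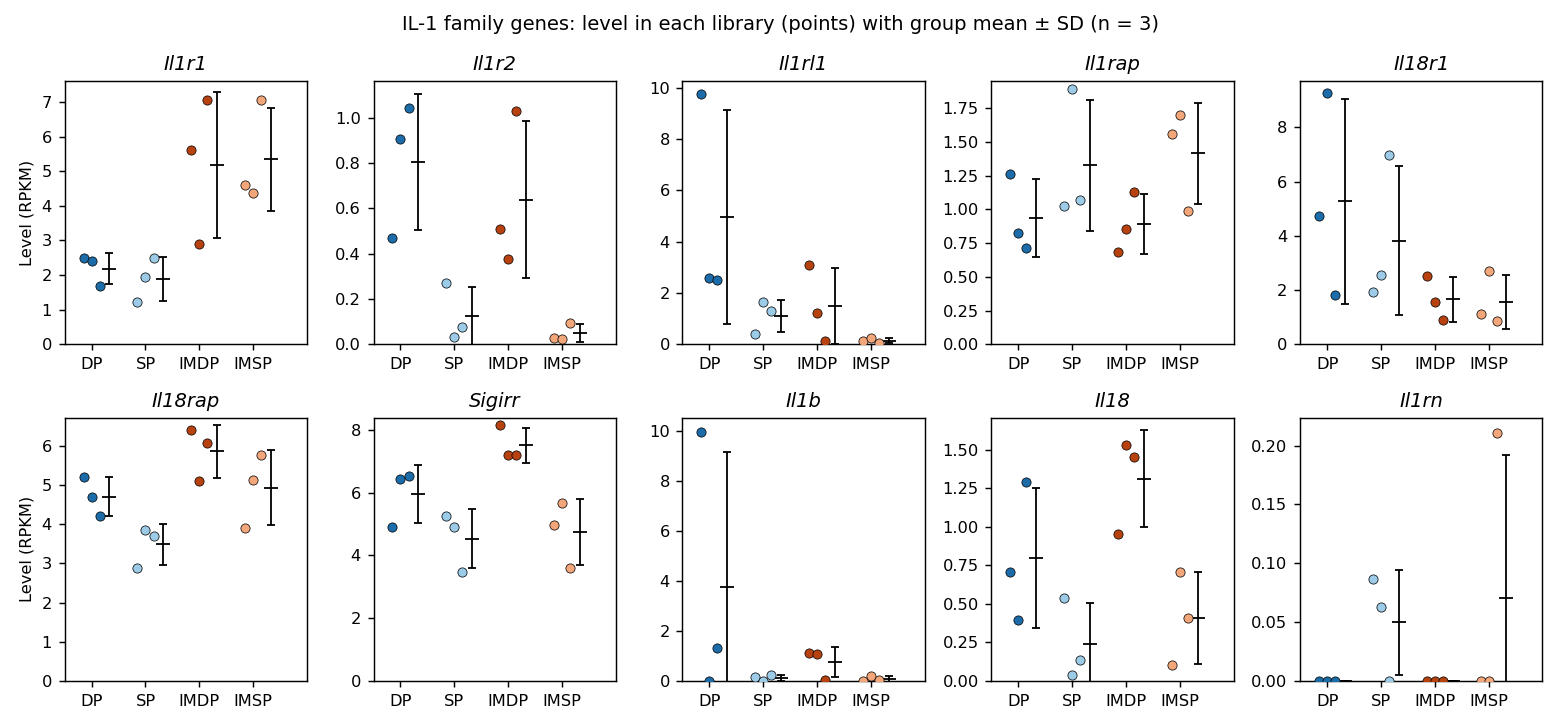
RPKM (y axis, linear, from 0) of the 10 genes in DP, SP, IMDP and IMSP libraries (x axis). Points are single libraries in the order of replicates 1 to 3, and bars beside them give the mean ± SD (n = 3), cut at 0. All 6 imatinib libraries lie above all 6 vehicle libraries for Il1r1, and all 6 G0M+ libraries above all 6 G0M- libraries for Il1r2.

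Il1r1, the signaling receptor of IL-1, was higher in imatinib than in vehicle libraries and did not differ detectably between populations. In DP libraries it stood at 2.49, 2.39 and 1.68 RPKM and in SP libraries at 1.22, 1.95 and 2.49 RPKM. With imatinib it stood at 5.61, 2.89 and 7.06 RPKM in IMDP and at 4.62, 4.36 and 7.05 RPKM in IMSP libraries, from 249 to 693 reads. All imatinib libraries were above all vehicle libraries, with the second IMDP library the closest to the vehicle range. The treatment effect was 1.31 ± 0.24 on the log2 scale (SE, 6 against 6 libraries) and passed the threshold (limma, adjusted p = 0.0367). It was the only family gene among 8 tested that passed with treatment, in a contrast in which 0.854% of all genes were called and 0.248% were called higher. Only 1.12% of all genes tested had imatinib and vehicle libraries that did not overlap, and Il1r1 was the only family gene to do so. The separate comparisons had the same direction, with 1.14 ± 0.34 (SE) in IMDP against DP (limma, adjusted p = 0.113) and 1.48 ± 0.34 (SE) in IMSP against SP (limma, adjusted p = 0.354), and neither passed. The group means were 5.34 ± 1.49 RPKM (SD, n = 3) in IMSP, 5.19 ± 2.12 in IMDP, 2.19 ± 0.443 in DP and 1.89 ± 0.638 in SP libraries. Within each treatment the 2 populations differed by less than the spread between libraries, and the population effect was 0.07 ± 0.24 (limma, adjusted p = 0.849).

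The call for Il1r1 was close to the threshold. Without the filter on low values the effect was the same size and the adjusted p was 0.0622 (limma), and of the 12 fits that each left out 1 library only those without the second IMDP, second IMSP or second SP library kept it (limma, adjusted p 0.0156 to 0.0971 over the 12). All imatinib libraries carry the library numbers 1 to 6 and all vehicle libraries the numbers 7 to 12, so treatment and library number cannot be told apart. Cell type markers were set beside Il1r1. The summed level of 9 monocyte and macrophage markers was 3.72 to 17.1 RPKM in vehicle and 14.2 to 81.4 RPKM in imatinib libraries, which overlapped. The highest sum was that of the third IMSP library. Among vehicle libraries the first DP library had the highest sum and Il1r1, but the first SP library had 16.8 RPKM with the lowest Il1r1. The third SP library had the lowest sum with Il1r1 at 2.49 RPKM. Of these markers 7 were tested and 0 were called with treatment, Csf1r having a treatment effect of 1.83 (limma, adjusted p = 0.125). Flt3, a receptor of multipotent and lymphoid-primed progenitors and a member of the list of 9 stem and progenitor markers, had one of 1.63 (limma, adjusted p = 0.113), and the sum of that list overlapped between treatments, with 144 to 197 RPKM in vehicle and 130 to 247 RPKM in imatinib libraries. None of these 9 was at 0 in all libraries. Their part in the Il1r1 result was not tested. The genes whose pattern over the 12 libraries was most like that of Il1r1, among 10064 genes outside the family, were Ppp3cc, a calcineurin catalytic subunit, with a Pearson correlation of 0.893, Galnt11 with 0.871 and Camkk2 with 0.863. These values describe 12 libraries that share their depth and preparation, and they carry no p.

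Il1r2, the decoy receptor that binds IL-1 without signaling, was higher in G0M+ libraries under both treatments, at low levels throughout. In DP libraries Il1r2 stood at 0.469, 0.906 and 1.04 RPKM and in IMDP libraries at 0.51, 0.374 and 1.03 RPKM, from 22 to 69 reads. In SP libraries it stood at 0.271, 0.0299 and 0.0752 RPKM and in IMSP libraries at 0.0288, 0.0223 and 0.0939 RPKM, where 5 of the 6 libraries held 1 to 5 reads and the first SP library 22. All 6 G0M+ libraries were above all 6 G0M- libraries. Of the 10072 genes that passed the filter, which Il1r2 did not, 8.21% showed this in one direction or the other and 122 genes in that of Il1r2. Within library-number pairs Il1r2 was higher in G0M+ cells in 6 of 6. In the fit without a filter the population effect was 2.17 ± 0.34 (SE, limma, adjusted p = 0.0026), where 3.31% of 16776 genes were called higher in G0M+ libraries. It passed in all 12 fits that left out 1 library (limma, adjusted p 0.00301 to 0.0121). The effect was 2.25 ± 0.48 (SE) in IMDP against IMSP (limma, adjusted p = 0.0142), where 1.6% of genes were called higher, and 2.09 ± 0.48 in DP against SP (limma, adjusted p = 0.0777), where 0.173% were. The former was lost without the third IMDP (limma, adjusted p = 0.0541) or the first IMSP library (limma, adjusted p = 0.0674), and the latter passed with neighbouring library numbers as a block (limma, adjusted p = 0.0226). The pseudocount is not small beside the values of the G0M- libraries, which rest on few reads. On the recovered reads (limma-voom) the population effect of Il1r2 was 3.46, and the cause of the difference was not tested. The treatment effect was -0.41 ± 0.34 (SE, limma, adjusted p = 0.63). An antisense gene, Gm16894, overlaps Il1r2 and was listed at 0 in all libraries.

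Il1rl1, which encodes the IL-33 receptor ST2 in its membrane and soluble forms, had the widest range of the receptors, from 0.0498 to 9.78 RPKM. In DP libraries Il1rl1 stood at 9.78, 2.59 and 2.49 RPKM and in SP libraries at 0.417, 1.63 and 1.29 RPKM. In IMDP libraries it stood at 3.08, 1.22 and 0.135 RPKM and in IMSP libraries at 0.122, 0.248 and 0.0498 RPKM. DP libraries were all above SP libraries and IMSP libraries all below SP libraries, whereas the third IMDP library fell within the IMSP range. The group means were 4.95 ± 4.18 RPKM (SD, n = 3) in DP, 1.48 ± 1.49 in IMDP, 1.11 ± 0.625 in SP and 0.14 ± 0.10 in IMSP libraries, so that IMDP and SP, the neighbours in this order, lay within their spread. The population effect was 2.03 ± 0.61 on the log2 scale (SE, limma, adjusted p = 0.0305), and 6 of 6 pairs of neighbouring library numbers had the higher level in the G0M+ library. In IMDP against IMSP the effect was 2.14 ± 0.86 (SE, limma, adjusted p = 0.086), and it passed with neighbouring library numbers as a block (limma, adjusted p = 0.0113). It was 1.30 without the first IMDP library (limma, adjusted p = 0.269) and 3.18 without the third, where it passed (limma, adjusted p = 0.0179). The treatment effect was of the same size in the other direction, -2.15 ± 0.61 (SE), and did not pass (limma, adjusted p = 0.106), and the interaction of population and treatment was 0.21 ± 1.22 (limma, adjusted p = 0.967).

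Il1rl1 moved together with markers of mast cells and basophils among G0M+ libraries but not among G0M- libraries. The summed level of 12 such markers was 97.6 to 351 RPKM in DP and 27.6 to 212 RPKM in IMDP libraries, against 24.3 to 29.4 RPKM in SP and 19.4 to 32.2 RPKM in IMSP libraries. Although the sums of SP and IMSP libraries overlapped, Il1rl1 was 0.417 to 1.63 RPKM in SP and 0.0498 to 0.248 RPKM in IMSP libraries. Of the 12 markers 9 were tested and 5 were higher in G0M+ libraries, in a contrast in which 5.32% of all genes were called higher. These were the proteases Cma1, Mcpt8 and Prss34, the IgE receptor chain Fcer1a and Il4. Cma1 was listed at 0 in all 6 G0M- libraries and Tpsab1 in all 12. The first DP and the first IMDP library had the highest sums, 351 and 212 RPKM, and also the highest Il1rl1 of their groups, and the third IMDP library had the lowest of both among the G0M+ libraries. The first DP and first IMDP library, chosen after seeing the data, also held the highest Il1rl1 of all 12. Leaving them out had to lower the effect and does not bear on the markers. Without them the population effect of Il1rl1 was 1.30 and no longer passed (limma, adjusted p = 0.0985). It was also lost when the first DP, first or second IMDP, the first or the third IMSP or first SP library was left out alone (limma, adjusted p 0.0525 to 0.0685), without the filter on low values (limma, adjusted p = 0.0546) and on the recovered reads (limma-voom, adjusted p = 0.115). The part of these cells in the result was not tested. The genes most like Il1rl1 over the 12 libraries were Il2ra, the high-affinity chain of the IL-2 receptor, with a Pearson correlation of 0.925, the transcriptional regulator Id2 with 0.924 and Tulp3 with 0.923.

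**Figure D2:**
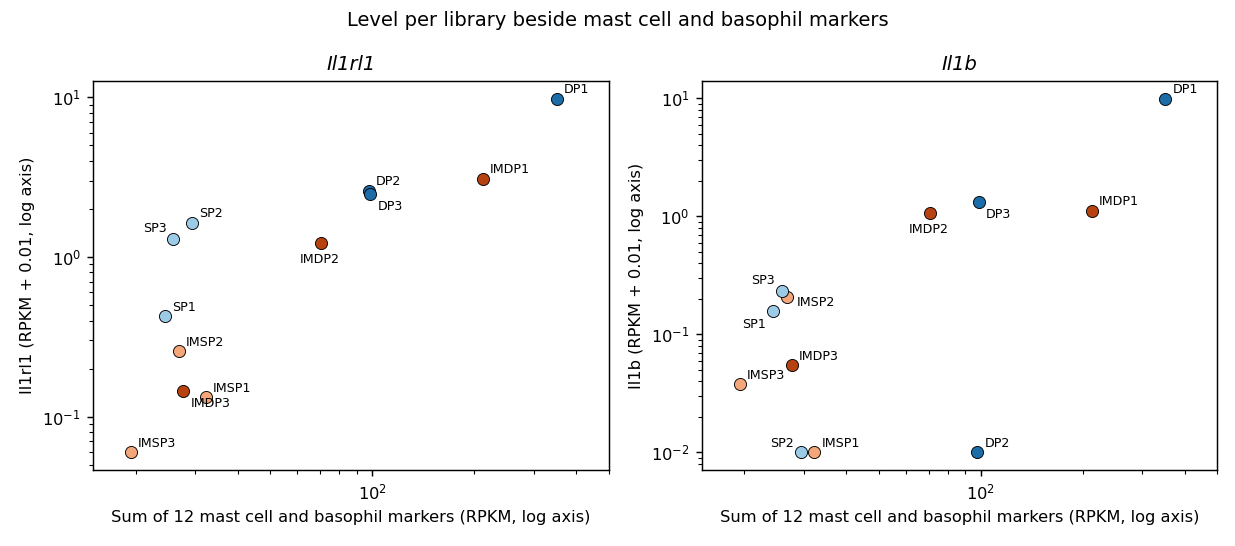
Il1rl1 (left) and Il1b (right), in RPKM + 0.01 on a log axis, against the summed RPKM of 12 mast cell and basophil markers on a log axis, with 1 labelled point per library. The first DP library is highest on every axis, and the second DP library has a marker sum of 97.6 RPKM with Il1b at 0.

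Il18r1, the signaling receptor of IL-18, varied widely within groups, and the groups overlapped in every comparison. It stood at 4.72, 9.28 and 1.80 RPKM in DP, at 1.94, 2.57 and 6.97 RPKM in SP, at 2.52, 1.57 and 0.88 RPKM in IMDP and at 1.13, 2.71 and 0.873 RPKM in IMSP libraries. The highest DP and the highest SP library, the second and the third, carry neighbouring library numbers. The treatment effect was -1.31 ± 0.44 (SE) and did not pass (limma, adjusted p = 0.155), and the population effect was 0.25 ± 0.44 (limma, adjusted p = 0.694). Il18r1 begins 137 bases after the end of Il1rl1 on the same strand. The 2 genes had a Pearson correlation of 0.685 over the 12 libraries, where the highest of any pair of tested family genes was 0.783. The genes most like Il18r1, picked for the highest correlation among 10064 genes, were Gpbp1 with 0.941, Ptpn9 with 0.928 and Myo10 with 0.921.

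Il18rap, the chain of the IL-18 receptor, had a narrow range, from 2.89 to 6.41 RPKM. It stood at 5.21, 4.69 and 4.21 RPKM in DP, at 2.89, 3.86 and 3.70 RPKM in SP, at 6.41, 5.11 and 6.06 RPKM in IMDP and at 3.90, 5.12 and 5.77 RPKM in IMSP libraries. The DP and the IMSP libraries were all above the SP libraries. The population effect was 0.34 ± 0.13 (SE, limma, adjusted p = 0.0626) and the treatment effect 0.40 ± 0.13 (SE, limma, adjusted p = 0.136). The population effect passed with neighbouring library numbers as a block (limma, adjusted p = 0.029), after scaling of all libraries to the same median (limma, adjusted p = 0.0223), on the recovered reads (limma-voom, adjusted p = 0.0116) and without the third IMSP library (limma, adjusted p = 0.0424). Among pairs of the 8 tested family genes, Il18rap and Il1r1 had the highest correlation over the 12 libraries (Pearson 0.783, a description).

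Il1rap, the accessory chain shared by the receptors of IL-1 and IL-33, had a population effect below 0 when all 12 libraries were fitted. It was the only one of the 8 family genes that passed the filter to do so. Il1rn had one of -0.54 in the fit without a filter, and those of Il1r1 and Il18r1 were below 0 in some fits with libraries left out. Il1rap stood at 1.26, 0.828 and 0.717 RPKM in DP and at 1.03, 1.89 and 1.07 RPKM in SP libraries. With imatinib it stood at 0.684, 0.855 and 1.13 RPKM in IMDP and at 1.56, 1.70 and 0.988 RPKM in IMSP libraries. The groups overlapped in both comparisons, and the G0M+ library was the lower in 5 of 6 pairs of neighbouring library numbers. The effect was -0.53 ± 0.24 (SE) and did not pass (limma, adjusted p = 0.113), and the treatment effect was 0.02 ± 0.24 (limma, adjusted p = 0.97).

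Sigirr, which dampens IL-1 and IL-18 receptor complexes, had the highest mean level of the 10 genes in DP, SP and IMDP libraries, and was higher in G0M+ libraries. It stood at 4.90, 6.44 and 6.53 RPKM in DP and at 5.24, 4.89 and 3.46 RPKM in SP libraries, which overlapped. With imatinib it stood at 8.15, 7.19 and 7.19 RPKM in IMDP and at 4.98, 5.67 and 3.58 RPKM in IMSP libraries, and these groups did not overlap. Its values rest on 113 to 295 reads. The population effect was 0.54 ± 0.14 (SE, limma, adjusted p = 0.0199), and the G0M+ library exceeded the G0M- library of the neighbouring number in 6 of 6 pairs, the smallest difference being 0.003 on the log2 scale. In IMDP against IMSP the effect was 0.67 ± 0.20 (SE, limma, adjusted p = 0.0325), and Sigirr was the only one called there of the 8 family genes that passed the filter. The median of all genes was shifted by -0.25 in this comparison and by -0.13 between populations, and relative to it the effects were 0.93 and 0.67. The effect in DP against SP was 0.40 ± 0.20 (limma, adjusted p = 0.436), and the interaction was 0.28 ± 0.29 (limma, adjusted p = 0.752). The population call was lost without the second (limma, adjusted p = 0.0504) or the third DP library (limma, adjusted p = 0.0541). The call in IMDP against IMSP was lost without any 1 of the IMDP libraries or without the first or the third IMSP library (limma, adjusted p 0.0681 to 0.102), without the filter on low values (limma, adjusted p = 0.0514) and with only these 2 groups in the fit (limma, adjusted p = 0.0561).

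The ligand Il18 was higher in G0M+ libraries. It stood at 0.706, 0.393 and 1.29 RPKM in DP and at 0.538, 0.0362 and 0.137 RPKM in SP libraries. With imatinib it stood at 0.952, 1.53 and 1.45 RPKM in IMDP and at 0.105, 0.703 and 0.41 RPKM in IMSP libraries. The IMDP libraries were all above the IMSP libraries, DP and SP libraries overlapped, and the values rest on 10 to 40 reads in G0M+ and 1 to 18 reads in G0M- libraries. The population effect was 1.62 ± 0.49 (SE, limma, adjusted p = 0.031), with the G0M+ library higher in all 6 pairs of neighbouring library numbers. In IMDP against IMSP it was 1.66 ± 0.69 (SE, limma, adjusted p = 0.0946) and passed with neighbouring library numbers as a block (limma, adjusted p = 0.0153). The population call was lost when the third DP, the second or the third IMDP, the first IMSP or second SP library was left out (limma, adjusted p 0.0648 to 0.0842). Il18 overlaps Bco2 and Tex12 on the opposite strand, and Tex12 held at most 3 reads in any library. Bco2 was listed with 13 to 27 reads in IMDP and 1 to 12 reads in the other libraries, and the counting is not stated to use strand, so that reads of the overlap cannot be assigned.

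Il1b, the gene of IL-1β, was uneven among G0M+ libraries and highest in the first DP library. In DP libraries Il1b stood at 9.94, 0 and 1.33 RPKM, from 412, 0 and 52 reads, and in IMDP libraries at 1.11, 1.07 and 0.0446 RPKM. No G0M- library exceeded 0.224 RPKM or 8 reads, and the G0M+ library was the higher in 5 of 6 pairs of neighbouring library numbers. The library with 412 reads was also the one with the highest mast cell and basophil sum, and its sum of 9 neutrophil markers was 20.5 RPKM against 2.16 to 4.89 RPKM in the other DP libraries, but the sum was higher still in the second and the first SP library, at 41.7 and 27.2 RPKM, where Il1b was at 0 and 0.147 RPKM. Of these 9 markers, 5 stayed under 1 RPKM in every library. Their part in the level of Il1b was not tested. The population effect was 2.20 ± 1.04 (SE) and did not pass (limma, adjusted p = 0.13), and with 1 library left out it ran from 1.41 without the first DP library (limma, adjusted p = 0.305) to 3.08 without the second DP library, the only 1 of 12 such fits to pass (limma, adjusted p = 0.0255). The treatment effect was -0.65 ± 1.04 (limma, adjusted p = 0.779). Its antisense gene Il1bos overlaps the gene and was listed at 0 in all libraries.

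Il1rn, the receptor antagonist, was near the limit of detection. It was listed at 0 in all 6 G0M+ libraries, in the third SP library and in the first and second IMSP libraries, and held 5 and 3 reads in the first and second SP and 8 reads in the third IMSP library, or 0.0863, 0.0628 and 0.211 RPKM. In the fit without a filter no contrast passed for Il1rn, with the lowest adjusted p, 0.211 (limma), for the population effect.

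**Figure D3:**
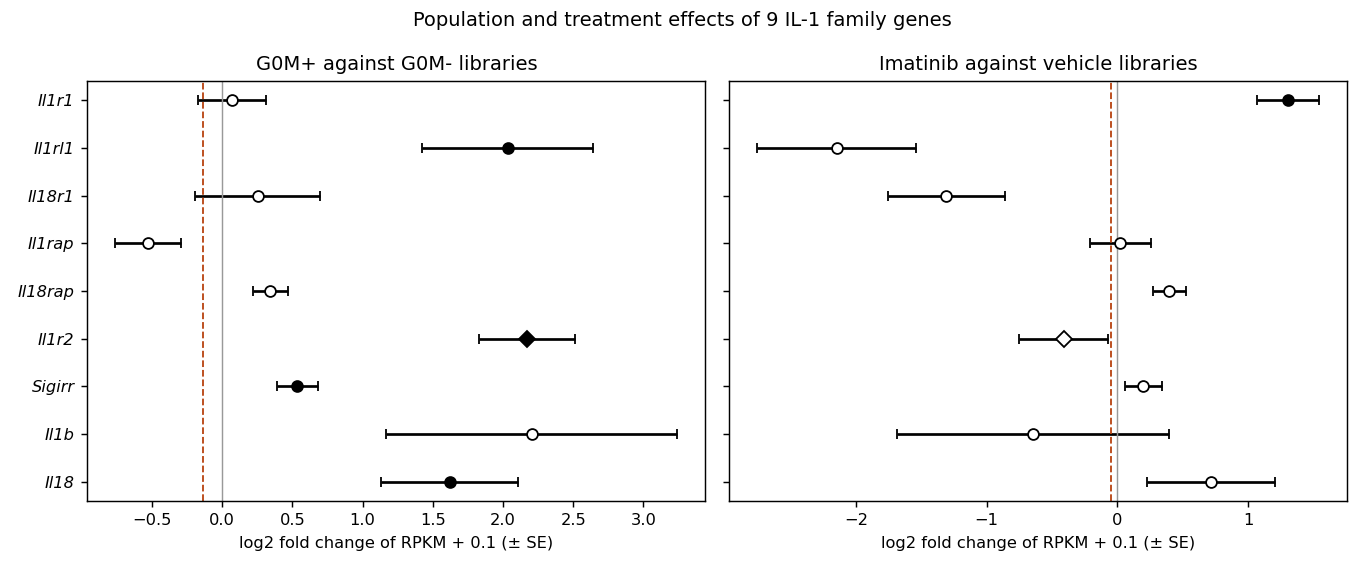
Log2 fold change of RPKM + 0.1 with its SE (x axis) for 9 genes (y axis), G0M+ against G0M- libraries on the left and imatinib against vehicle libraries on the right, 6 against 6 each. Filled symbols passed an adjusted p of 0.05, diamonds come from the fit without a filter, and the dashed line is the median of all 10072 genes. Il1rl1, Il1r2, Sigirr and Il18 are filled on the left, and Il1r1 alone is filled on the right.

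Across the 8 family genes that passed the filter, 3 were called between populations, Il1rl1, Sigirr and Il18, all higher in G0M+ libraries. Of all genes tested, 26.3% were called in this contrast and 5.32% were called higher. The median effect of the 8 genes was 0.44 against a median of -0.13 over all genes, and 7 of 8 were above 0, as were 36.6% of all genes. In IMDP against IMSP, 1 of the 8 was called, against 25.6% of all genes called and 2.37% called higher. In DP against SP, 0 of the 8 passed (limma, 3 at an unadjusted p under 0.05), against 2.26% of all genes. In IMDP against DP, 0 passed (limma, 3 at an unadjusted p under 0.05), against 0.367%, and in IMSP against SP, 0 passed (limma, 3 at an unadjusted p under 0.05), against 0% of all genes. The interaction passed for 0 of the 8 (limma, 0 at an unadjusted p under 0.05) and for 0% of all genes. Of all 10072 genes, 1328 were at an unadjusted p under 0.05 (limma) in DP against SP and 2061 in IMDP against DP. In IMSP against SP there were 845 such genes and in the interaction 937. Libraries of the 2 groups did not overlap for Il1r2, Il1rl1 and Il18rap in DP against SP (22.4% of all genes tested), for Il1r2, Sigirr and Il18 in IMDP against IMSP (39% of all), for Il1r1 and Sigirr in IMDP against DP (23.6% of all), and for Il1r1, Il18rap and Il1rl1 in IMSP against SP (13.8% of all). These shares take both directions, and Il1r2 is not among the genes behind them. Of 10072 genes, 975 lay wholly higher in DP against SP, 625 in IMDP against IMSP and 461 in IMDP against DP. In IMSP against SP, 1114 lay wholly higher and 274 wholly lower. Il1rl1 was the only family gene that lay wholly lower in 1 of these comparisons, in IMSP against SP libraries. The pairwise comparisons share libraries with each other and with the averaged effects.

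**Figure D4:**
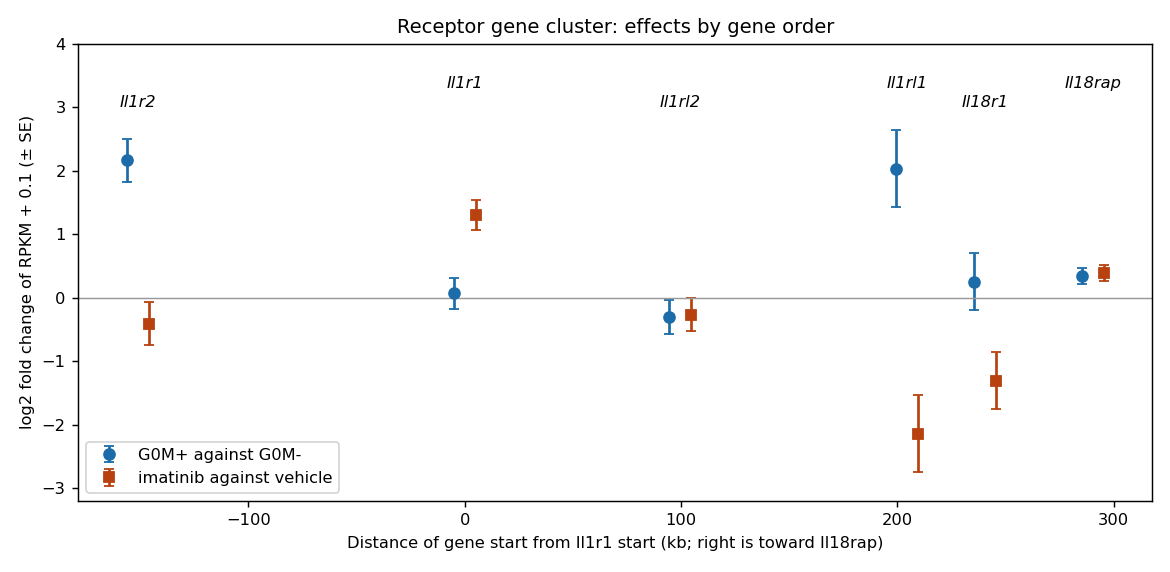
Log2 fold change of RPKM + 0.1 with its SE (y axis) of the 6 genes of the chromosome 1 receptor cluster by the distance of their starts from that of Il1r1 in kb (x axis). Circles are the population effect and squares the treatment effect, Il1r2 from the fit without a filter. Il1r1 at 0 kb and Il1rl1 at 204 kb have treatment effects of 1.31 and -2.15.

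The 5 family genes of the chromosome 1 cluster did not move as a block. By distance from the start of Il1r1, Il1r2 lies at -151 kb, Il1rl1 at 204 kb, Il18r1 at 240 kb and Il18rap at 290 kb. Treatment effects were 1.31 for Il1r1 and 0.40 for Il18rap, against -0.41 for Il1r2, -2.15 for Il1rl1 and -1.31 for Il18r1, and only that of Il1r1 passed. Population effects were 2.17 for Il1r2, 0.07 for Il1r1, 2.03 for Il1rl1, 0.25 for Il18r1 and 0.34 for Il18rap. Il1rl2, which lies between Il1r1 and Il1rl1, had a population effect of -0.30 (limma, adjusted p = 0.402) and a treatment effect of -0.27 (limma, adjusted p = 0.621).

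The remaining ligands, receptors and binding proteins of the family were mostly listed at or near 0. Of 11 further genes, 5 were above 0 in any library and 2 passed the filter, Il18bp and Il1rl2. Il33, the ligand of the Il1rl1 product, was listed at 0 in all 12 libraries, and Il1a reached at most 0.556 RPKM, from 37 reads in a DP library. Il18bp, a secreted protein that neutralizes IL-18, was at 3.27 ± 0.529 RPKM (SD, n = 3) in IMDP and 1.95 ± 0.467 in IMSP libraries, with an effect of 0.73 ± 0.22 (SE, limma, adjusted p = 0.0302), and at 2.55 ± 0.604 in DP and 2.17 ± 0.118 in SP libraries. Its population effect was 0.46 ± 0.15 (SE, limma, adjusted p = 0.0444) and passed in only 3 of 12 fits that left out 1 library, those without the second DP, the third IMDP or the third IMSP library (limma, adjusted p 0.0227 to 0.112). The effect in IMDP against IMSP was lost without the first or second IMDP or the first or second IMSP library (limma, adjusted p up to 0.116).

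Of 17 genes of cytokine processing, 15 were tested and 2 differed between populations, both lower in G0M+ libraries, where 26.3% of all genes were called. These were the neutrophil proteases Ctsg (-2.03, limma, adjusted p = 0.0418) and Prtn3 (-2.04, limma, adjusted p = 0.0417), which can cleave IL-1 family precursors, and no gene of the list was called with treatment or higher in any comparison. Of the 12 fits that left out 1 library, both passed only without the first DP, the second IMSP or the third SP library, and Ctsg also without the first IMDP library (limma, adjusted p up to 0.103), and both were lost after median scaling (limma, adjusted p of 0.0585 and 0.0588). Casp1, which cleaves IL-1β and IL-18, was at 3.12 to 5.34 RPKM in all libraries, with a population effect of -0.01 (limma, adjusted p = 0.967) and a treatment effect of 0.19 (limma, adjusted p = 0.489).

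All 19 genes of the proximal signal were tested. Between populations 5 of 19 were called, as were 26.3% of all genes, and in IMDP against IMSP 3 of 19, against 25.6% of all genes. The 5 are all named although the rule takes 4, and Tmed1 was added after its value was seen. Irak2 (0.63), Peli1 (0.39) and Sqstm1 (0.63) were higher and Tmed1 (-0.52) and Tollip (-0.34) lower in G0M+ libraries (limma, adjusted p 0.0162 to 0.0459). In IMDP against IMSP, Ecsit (-0.79), Map3k7 (-0.49) and Tollip (-0.64) were lower (limma, adjusted p 0.00527 to 0.04), but these 3 and the 2 lower genes between populations did not pass after scaling to the same median, where their effects ran from -0.52 to -0.19 (limma, adjusted p 0.0716 to 0.262). Sqstm1, which encodes the adaptor p62, was lower with imatinib, at -1.41 ± 0.18 (SE, limma, adjusted p = 0.00761), and in IMDP against DP at -1.70 (limma, adjusted p = 0.0338), the latter being lost without the first or second DP, the second or the third IMDP, the third IMSP or the first SP library (limma, adjusted p up to 0.117), after median scaling (0.055), with only these 2 groups in the fit (0.144) and on the recovered reads (limma-voom, 0.0631). Its treatment effect passed in all 12 fits that left out 1 library, as did both effects of Tollip, an inhibitor of IRAK1, in the fits without median scaling. Irak2 was called only without the first IMDP, first or second IMSP or first SP library, Peli1 without the first DP or second IMSP library and Tmed1 without the first IMDP or second IMSP library, and Sqstm1 between populations was lost without the second DP, first IMSP or second SP library (limma, adjusted p up to 0.112 over these 4). Ecsit was lost without the second or the third IMDP or the first or the third IMSP library, and Map3k7 kept its call only without the first DP, first IMDP, the third IMSP or the third SP library (limma, adjusted p up to 0.152). Myd88, the adaptor used by all these receptors, was at 6.85 to 12.3 RPKM in all libraries, with effects of -0.29 between populations (limma, adjusted p = 0.132) and -0.05 with treatment (limma, adjusted p = 0.874).

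Of 20 genes known to be induced by IL-1 family signals, 13 were tested. Il4, Il6, Ptgs2 and Vcam1 were higher in G0M+ libraries, with population effects of 2.66, 3.71, 1.23 and 2.62 (limma, adjusted p 0.006 to 0.0407), and no gene of the list was lower, in a contrast in which 26.3% of all genes were called and 5.32% called higher. All but Ptgs2 passed in each of the 12 fits that left out 1 library. Il4 is also among the mast cell and basophil markers and Vcam1 among those of monocytes and macrophages. Ptgs2 passed only without the third IMDP, the second IMSP or the third SP library (limma, adjusted p up to 0.0975). Vcam1 was not called on the recovered reads (limma-voom). Il6 was the only gene of the list called in DP against SP (4.62, limma, adjusted p = 0.048) and Vcam1 the only one in IMDP against IMSP (3.58, limma, adjusted p = 0.0173). The former passed only without the second or the third IMDP or the third SP library (limma, adjusted p up to 0.186), and the latter was lost without the second IMDP or first IMSP library (limma, adjusted p up to 0.071). With imatinib the NF-κB inhibitors Nfkbia (-1.46, limma, adjusted p = 0.043) and Tnfaip3 (-2.04, limma, adjusted p = 0.021) were lower, 2 of 13 against 0.854% of all genes, whereas Il1r1 was higher in the same libraries. Nfkbia passed only without the second IMDP, second IMSP or second SP library (limma, adjusted p up to 0.114), and Tnfaip3 was lost without the second DP, the third IMDP or the first or the third SP library (limma, adjusted p up to 0.0758).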

How the data were processed

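The authors sequenced 12 libraries of 100 sorted cells, mapped the reads to GRCm38 and deposited RPKM, 1 value per feature and library. Their methods name CLC Genomics Workbench, and the reporting summary HISAT2 and featureCounts. The methods say that expression was normalized, and not whether this is part of the RPKM. All 17735 features above 0 gave whole reads. Of 11368000 to 20574000 reads per library, 25.9% to 37.1% fell on listed features, and precision from reads covers counting error only.

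Numbered copies were summed. Genes reaching 1 RPKM in 3 or more libraries were fitted on log2(RPKM + 0.1) by limma (version 3.58.1, under R 4.3.3), using 4 group means, a variance trend and Benjamini-Hochberg adjustment over 10072 genes. A fold change on this scale understates changes of low genes. The fit and the recovery of reads were tested on simulated data. Tables were made with pandas 2.3.3 and numpy 2.4.6, and figures with matplotlib 3.10.9, under Python 3.11.15. Positions came from GENCODE M21 (GRCm38) and promoters from RefSeq (GRCm38.p6).

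The genes, lists and tests were chosen with earlier results of these data known. All 10 family genes are named, with list genes past the threshold (up to 4 per comparison), Casp1, Myd88, Il1a and Il33, and the 3 most similar genes of Il1r1, Il1rl1 and Il18r1. The list of responses was drawn from general knowledge. Same-numbered IMDP and IMSP libraries, which also have neighbouring library numbers, deviated together (correlations 0.429 to 0.655), as did DP and SP libraries with neighbouring numbers (0.495 to 0.519), but not same-numbered DP and SP libraries (-0.298 to -0.0976). Alternatives changed the pseudocount, filter, scaling, groups and block, used limma-voom on the recovered reads, kept copies apart, or left out a library. The combinations with no filter, and the fit without the first DP and first IMDP library, were chosen after seeing the data.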

Additional observations from a re-analysis of the deposited data

How the results depend on the processing

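The count of family genes called in IMDP against IMSP was 1 and became 2 with a pseudocount of 1 (Il18 and Sigirr) or on the recovered reads (Il18rap and Sigirr), 3 with neighbouring library numbers as a block (Il18, Il1rl1 and Sigirr), and 0 with only 2 groups in the fit or without the first DP and first IMDP library. Between populations it was 3, and 4 with median scaling or with neighbouring library numbers as a block, each adding Il18rap, 2 without the first DP and first IMDP library, and 1 with a filter of 5 RPKM, under which Il1rl1 and Il18 were not tested. With treatment it was 1, and 0 without a filter or without the first DP and first IMDP library. Some fits changed which genes were called. Without a filter Sigirr in IMDP against IMSP (limma, adjusted p = 0.0514) and Il1rl1 between populations (limma, adjusted p = 0.0546) were lost, while Il1r2 was called in both. On the recovered reads Il1rl1 was lost between populations (limma-voom, adjusted p = 0.115) and Il18rap was gained (limma-voom, adjusted p = 0.0116). Leaving out each library gave 0 to 1 in IMDP against IMSP, 1 to 3 between populations and 0 to 1 with treatment. With the replicate block the counts were 1, 3 and 1, and this block, whose numbers pair IMDP with IMSP but not DP with SP libraries, changed no call of a family gene; of the 22 calls of list genes it ended those of Il18bp (limma, adjusted p = 0.0535), Irak2 (0.054) and Peli1 (0.0584) between populations, Map3k7 (0.0529) in IMDP against IMSP and Il6 (0.0899) in DP against SP. Of these 22 calls, the fit without a filter ended 12 (limma, adjusted p 0.0514 to 0.0985), both of Il18bp and those of Ctsg, Prtn3, Ecsit, Map3k7, Irak2, Peli1, Tmed1, Ptgs2 and Nfkbia and of Il6 in DP against SP. The recovered reads ended 11 (limma-voom, adjusted p 0.057 to 0.365), those of Ctsg, Prtn3, Ecsit, Map3k7, Tmed1, both of Tollip and of Vcam1, Sqstm1 in IMDP against DP and Il6 in DP against SP. Median scaling ended 8 (0.055 to 0.262), leaving out the first DP and first IMDP library 7 (0.0639 to 0.13), and only 2 groups in the fit 4 of the 7 it could test (0.0661 to 0.144). A pseudocount of 0.01 ended that of Il6 in DP against SP (0.132). Signs turned for effects that did not pass: Il1r1 between populations, -0.065 to 0.25 over libraries left out and -0.0307 without the first DP and first IMDP library, Il1rap with treatment (-0.0605 to 0.16), Il18r1 between populations (-0.0185 to 0.56) and Il1b with treatment (-1.52 to 0.14). At this depth Il1r2, Il1rn, Il18 and Il1b rest on fewer than 10 reads in 5, 12, 4 and 8 of the 12 libraries, and a value of 0 there does not show absence. The causes of these changes were not tested.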

Other observations

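Some genes that lay outside the family and its pathway lists were called in the same contrasts. C1qc, a complement gene of macrophages, was listed at 0 in all 6 G0M- libraries and stood at 0.342 to 1.65 RPKM in DP and 1.05 to 1.52 RPKM in IMDP libraries, from 6 to 29 reads. Its population effect was 3.42 (limma, adjusted p = 0.00221), and the macrophage receptor Adgre1 had one of 1.58 (limma, adjusted p = 0.0454). Both come from the list of 9 monocyte and macrophage markers. Of these 7 were tested, with a median population effect of 0.06, and 3 were called higher, against 5.32% of all genes. Ly86 (3.00 to 24.8 against 0 to 1.94 RPKM) and Ms4a6c (4.54 to 19.0 against 2.29 to 3.12 RPKM) were instead higher in IMSP than in IMDP libraries. The list sums overlapped, with 6.12 to 24.3 RPKM in G0M+ and 3.72 to 81.4 RPKM in G0M- libraries. Thy1, a surface marker of T cells and of some progenitors, was lower with imatinib, at -1.47 (limma, adjusted p = 0.049), with group means, each over 3 libraries with its SD, of 9.06 ± 2.81 RPKM in DP and 9.24 ± 3.21 in SP libraries, against 3.08 ± 0.798 in IMDP and 3.80 ± 2.72 in IMSP libraries. Of 10 markers of T cells and innate lymphoid cells, 5 stayed under 1 RPKM in every library, among them Cd3d, Cd3g and Il7r. Of 5 B cell markers, 4 stayed under 1 RPKM in every library. The sum of 7 erythroid markers was 204 to 263 RPKM in DP and 53.9 to 145 RPKM in SP libraries, and 56.8 to 378 RPKM in IMDP and 9.43 to 71.6 RPKM in IMSP libraries. These markers were not tested for a part in the levels of the family genes.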
